A study of Mus musculus with 12 samples.

Results

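Inhibitory receptors of T cells were followed as a group of 9 genes chosen by name, namely Pdcd1 and Ctla4, which encode the targets of the antibodies given, and Lag3, Havcr2, Tigit, Cd200r1, Btla, Cd160 and Cd96. All 9 were among the 48709 genes listed in the authors' deposited tables, and all 9 were among the 17833 genes those tables tested. RNA had been sequenced from CD8 T cells of C57BL/6 wild-type mice (postnatal day 91) that carried TRAMP-C2, a transplantable line derived from a mouse prostate tumour. Live CD45+CD3+CD8+ cells that stained for Spas-1 and not for Spas-2 were sorted from draining lymph nodes. Spas-1 is an antigen of that tumour. The 4 arms received anti-CTLA-4 alone, anti-PD-1 DANA alone, the combination of both antibodies (Combo) and an isotype control antibody, with 3 libraries each. DANA names a mutation of the antibody's Fc part that prevents binding to Fc receptors. The sample labels place the doses on days 3, 6 and 9, while the series text has 3, 6 and 8. Cells were taken on day 28, which the labels count from treatment and the series text from injection of the tumour.

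The cells of 5 mice were combined in each arm and this pool was divided into 3 libraries, each made from 0.25 ng of RNA with 21 cycles of pre-amplification. The libraries of an arm are therefore splits of 1 pool, p-values reflect the spread among splits and nothing more, and arm and pool cannot be told apart. The RNA was from bulk pools, so fewer cells of a type and less RNA per cell cannot be told apart either. Depth was between 14729713 and 42556869 reads per library, as recovered from the deposited values. The T cell label was matched by its defining markers: in the authors' deposited table of Combo the larger group mean was 464 RPKM for Cd3d, 81.8 RPKM for Cd8a and 345 RPKM for Cd8b1 (RPKM, reads scaled by exon length and library depth). Markers of other cells were present as well, and Cd74, which B cells and other antigen-presenting cells express strongly, averaged 156.8 RPKM in the isotype arm.

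Inhibitory receptors bind ligands on neighbouring cells and dampen the signals a T cell receives through its antigen receptor and through CD28, in many cases by recruiting phosphatases to tyrosine motifs of the cytoplasmic tail. Several of them are induced when a T cell is activated and stay high on exhausted cells in tumours and chronic infection, whereas Btla is also found on resting lymphocytes. CTLA-4 competes with the activating receptor CD28 for CD80 and CD86, PD-1 binds PD-L1 and PD-L2, and antibodies against both are the basis of checkpoint blockade.

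Of the 9 receptors, Lag3 and Cd200r1 were lower with anti-CTLA-4 than with isotype, Cd200r1 was also lower with Combo, and no receptor was called with anti-PD-1 DANA. A gene was called where the false discovery rate in the authors' deposited table was under 0.05. With anti-CTLA-4, 2 of 9 receptors were called, both lower, where 4.23% of all tested genes were called in either direction and 1.49% were called lower. With anti-PD-1 DANA, 0 of 9 were called, where 3.75% of all tested genes were called, and 1 receptor, Havcr2, had an unadjusted p under 0.05 by the authors' test, a mark that 23.1% of all tested genes passed. With Combo, 1 of 9 was called, where 7.53% of all tested genes were called and 3.59% were called lower. An unadjusted p under 0.05 was reached by 2 of 9 receptors with anti-CTLA-4 and by 2 of 9 with Combo, where 22.9% and 23.2% of all tested genes reached it. Both Cd200r1 calls rest on 1 isotype library and were lost under Bonferroni adjustment. Without genes that rest on 1 library, 1 receptor was called with anti-CTLA-4 and 0 with Combo. The median log2 fold change of the 9 receptors was -1.38 after anti-CTLA-4, -0.51 after anti-PD-1 DANA and -0.79 after Combo, against -0.62, -0.45 and -0.42 over all tested genes in the same order. The 3 comparisons share the isotype libraries, so they are not independent of each other.

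**Figure D1:**
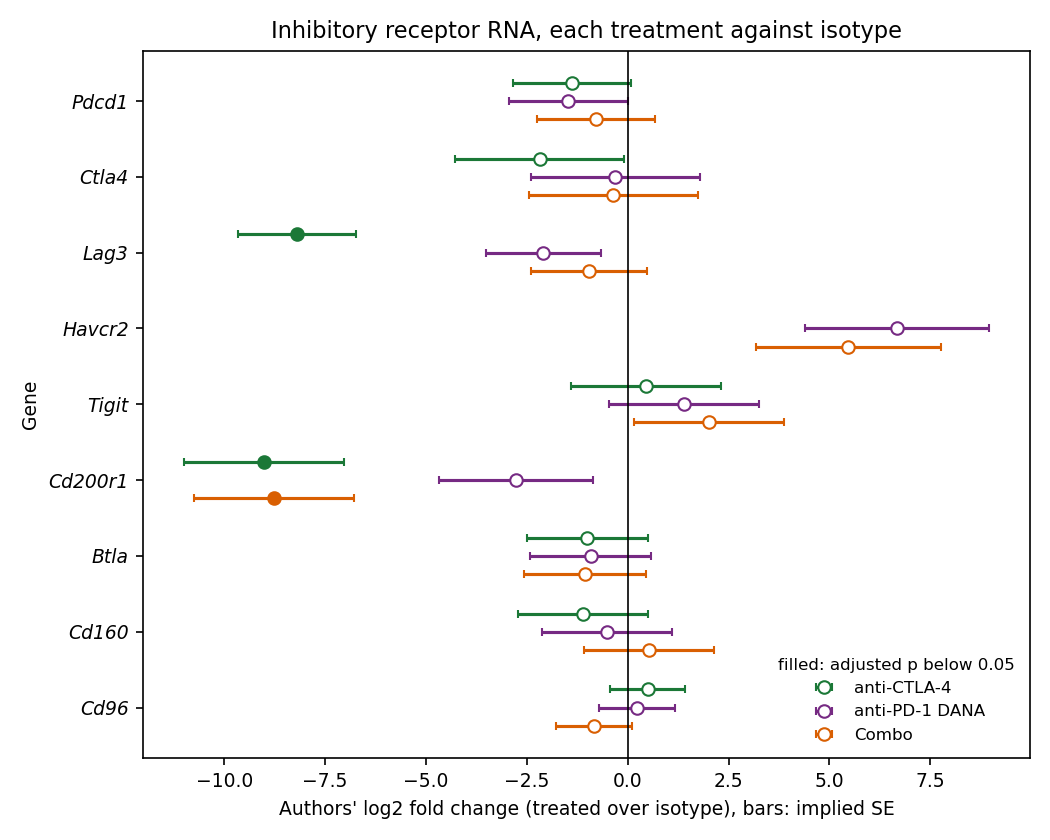
Log2 fold change of each receptor gene (x axis, treated over isotype, from the authors' deposited tables), with bars showing the standard error that their p-value implies; colours give the treatment and filled points have a false discovery rate under 0.05. Lag3 with anti-CTLA-4 and Cd200r1 with anti-CTLA-4 and with Combo are the 3 filled points; Havcr2 with anti-CTLA-4 is not drawn because the isotype libraries held 3 reads in all and the anti-CTLA-4 mean was no higher.

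The authors' deposited tables give the larger of the 2 group means and no value per library. Of the 36 possible group means of these receptors 18 could be read, and for 16 of them the whole reads in each library were recovered from the arithmetic of RPKM. Libraries are lettered a, b and c within each arm from the shallowest to the deepest, and cannot be tied to the numbers in the labels. Where a treated arm was the lower group, its own mean is not given and the isotype mean is an upper limit for it. Such a mean can only be approximated from the fold change. These levels show that most receptors were read almost wholly from 1 or 2 of the 3 libraries of an arm.

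**Figure D2:**
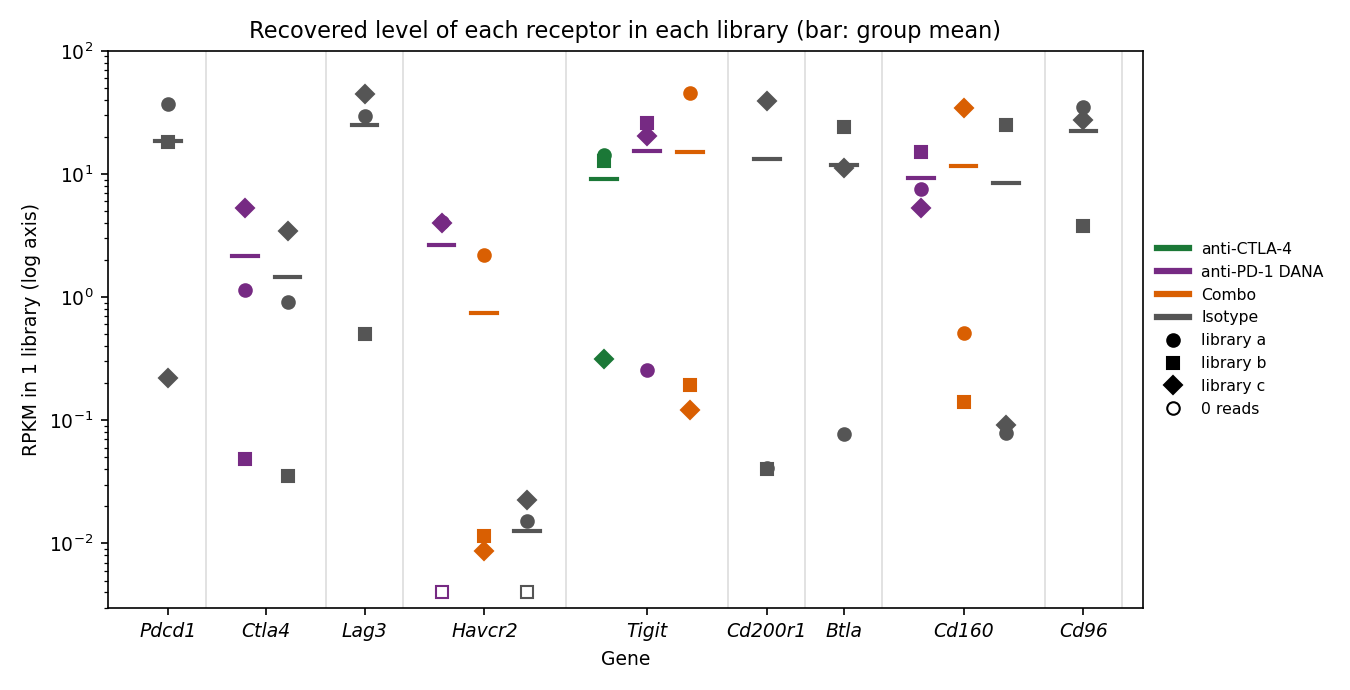
Level of each receptor in each library (y axis, RPKM on a log axis) for the 16 group means whose reads were recovered; colours give the arm, symbols the library, horizontal bars the group mean, and open symbols libraries with 0 reads. Libraries of 1 arm can lie far apart, as for Cd200r1 in isotype at 39.4 RPKM in library c against 0.0410 RPKM and 0.0401 RPKM; the high anti-PD-1 DANA points of Havcr2 overlap.

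Pdcd1 encodes PD-1, the receptor bound by anti-PD-1 DANA, and lies on the minus strand of chromosome 1 from 94038305 to 94052553 (GRCm38). The isotype libraries held 1703, 865 and 14 Pdcd1 reads, or 36.8, 18.3 and 0.221 RPKM, with a mean of 18.4 ± 18.3 RPKM (SD, n = 3). Libraries a and b were high and library c was low, and without library a the mean would be 9.25 RPKM. All 3 treated means were below the isotype mean, and the log2 fold change was -1.38 ± 1.47 (implied standard error) after anti-CTLA-4, -1.47 ± 1.47 after anti-PD-1 DANA and -0.79 ± 1.47 after Combo in the authors' deposited tables. Scaled by library size the values were -0.44, -0.65 and -0.68 in the same order. None of these passed the test, the smallest unadjusted p of the deposited values being 0.318, and each 95% interval holds 0. With anti-PD-1 DANA the interval ran from -4.35 to 1.41, so a sizeable change of Pdcd1 in either direction was not detectable with these libraries.

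Ctla4, the gene of the other antibody target, lies on the plus strand of chromosome 1 from 60887000 to 60915832, between Cd28 and Icos, which encode activating receptors of the same family. It was a scarce transcript. The anti-PD-1 DANA libraries held 65, 3 and 393 reads and averaged 2.16 ± 2.76 RPKM (SD, n = 3), and the isotype libraries held 51, 2 and 263 reads and averaged 1.46 ± 1.76 RPKM (SD, n = 3). In both arms library c was the high one and library b was near 0, and the ranges of the arms overlap. Library c gave 81.5% of the anti-PD-1 DANA mean and 78.4% of the isotype mean, and without it these means would be 0.600 RPKM with anti-PD-1 DANA and 0.474 RPKM with isotype. The authors' deposited tables give log2 fold changes of -2.19 ± 2.10 after anti-CTLA-4, -0.31 ± 2.10 after anti-PD-1 DANA and -0.36 ± 2.10 after Combo, none of which passed the test. With anti-PD-1 DANA the sign depends on the scaling: the ratio of the RPKM means was above 1, at a log2 of 0.56, while the authors' fold change is below 0.

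The stretches before the start sites of the antibody targets are shown because Pdcd1 and Ctla4 are genes that NFAT, a factor switched on by antigen receptor signalling, is known to bind. Each is the 250 bases before the RefSeq start (GRCm38.p6), written 5′ to 3′ on the strand of the gene. Capitals mark the NFAT core GGAAA or its reverse complement TTTCC.
Pdcd1, chr1:94052554-94052803, minus strand: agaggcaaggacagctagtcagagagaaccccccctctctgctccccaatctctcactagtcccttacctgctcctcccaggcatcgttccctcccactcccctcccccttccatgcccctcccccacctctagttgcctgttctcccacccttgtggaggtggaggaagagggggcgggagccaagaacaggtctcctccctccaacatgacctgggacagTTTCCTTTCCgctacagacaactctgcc
Ctla4, chr1:60908775-60909024, plus strand: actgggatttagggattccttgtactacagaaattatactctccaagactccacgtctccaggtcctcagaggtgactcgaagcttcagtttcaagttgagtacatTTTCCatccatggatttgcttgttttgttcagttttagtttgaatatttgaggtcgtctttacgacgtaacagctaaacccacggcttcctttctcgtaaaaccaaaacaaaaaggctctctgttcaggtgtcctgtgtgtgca
The Pdcd1 window holds 2 of these cores, at 28 and 23 bases before the start, and the Ctla4 window holds 1, at 144 bases before it. This core is common, since 55.6% of 32851 mouse promoter windows of the same length hold it on either strand. The Ctla4 window lies inside the gene region of the deposited tables, which begins upstream of the RefSeq start. Of the 9 receptors 7 had a promoter in the table used. Tigit had 2 cores, Cd96 had 4, the second of 2 Cd160 promoters had 1, and Btla, Havcr2 and the first Cd160 promoter had none. The T-box motif GGTGTGA, in either orientation, was found only in the second Cd160 promoter among these windows and in 3.33% of all windows.

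Lag3 encodes a CD4-like receptor that binds MHC class II and lies near Cd4 on chromosome 6, from 124904361 to 124911705 on the minus strand. It had the highest isotype mean of the receptors. The isotype libraries held 1491, 26 and 3092 reads, or 29.5, 0.503 and 44.6 RPKM, with a mean of 24.9 ± 22.4 RPKM (SD, n = 3). Libraries a and c were high and library b was low, so the isotype mean rests on more than 1 library, and without library c it would be 15.0 RPKM. This recovery was among the less certain ones, with 0.167 solutions expected by chance. With anti-CTLA-4, Lag3 fell by 8.20 ± 1.46 on the log2 scale (false discovery rate 0.000165, Bonferroni p 0.00099) in the authors' deposited table. The anti-CTLA-4 level itself is not given. Scaled by library size, the difference was -7.25. Set against the isotype mean of 24.9 RPKM, this value approximates a treated level below the 0.503 RPKM of isotype library b. With anti-PD-1 DANA the authors' deposited table gives -2.09 ± 1.43 (p = 0.143) and with Combo -0.96 ± 1.43 (p = 0.501), both false discovery rates rounding to 1. Among its ligands, Lgals3, which encodes galectin-3, rose with anti-PD-1 DANA, at 5.26 ± 1.52, and with Combo, at 6.97 ± 1.52, in the authors' deposited tables (false discovery rates 0.0422 and 0.00154). Its 4.41 ± 1.52 with anti-CTLA-4 did not pass the test. The anti-PD-1 DANA libraries held 1160, 541 and 46 Lgals3 reads, and the Combo libraries held 718, 3383 and 3.

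Havcr2 encodes TIM-3, a receptor that marks terminally exhausted CD8 T cells, and lies on the plus strand of chromosome 11 from 46454935 to 46481255. It was close to absent in the isotype arm. The anti-PD-1 DANA libraries held 267, 0 and 345 Havcr2 reads, or 4.05, 0 and 3.97 RPKM, the Combo libraries held 147, 1 and 1 reads, or 2.20, 0.0115 and 0.00864 RPKM, and the isotype libraries held 1, 0 and 2 reads, or 0.0153, 0 and 0.0224 RPKM. The means were 2.67 ± 2.32 RPKM with anti-PD-1 DANA, 0.739 ± 1.26 RPKM with Combo and 0.0126 ± 0.0114 RPKM with isotype (SD, n = 3 each). In anti-PD-1 DANA libraries a and c were high and library b had no read, so the arms overlap at their low end. In Combo, library a gave 99.1% of the mean, and without it the Combo mean would be 0.0101 RPKM, within the isotype range. Summed over libraries, Havcr2 took a 200.1-fold larger share of reads with anti-PD-1 DANA (612 reads) than with isotype (3 reads), with an exact 95% interval of 68.1 to 973 that covers counting error only. For Combo (149 reads) the ratio was 40.8, with an interval of 13.7 to 199.9. The authors' deposited tables give log2 fold changes of 6.68 ± 2.29 with anti-PD-1 DANA (p = 0.00355, false discovery rate 0.121) and 5.47 ± 2.29 with Combo (p = 0.0171, false discovery rate 0.274), and neither was called. Adjusted over the tested genes alone, Havcr2 with anti-PD-1 DANA would pass at 0.0443, and with library size scaling at 0.046. With anti-CTLA-4 the larger mean was the isotype one at 3 reads. The authors' deposited log2 fold change there, -3.86 ± 3.39 (p = 0.255 by their test), rests on those few reads and is not interpreted. Its promoter is shown because Havcr2 had the highest fold changes of the 9 receptors. Capitals mark a match to TGANTCA, a loose form of the AP-1 motif that allows any base at N. AP-1 factors are induced by T cell activation, and binding to this stretch was not tested.
Havcr2, chr11:46454681-46454930, plus strand: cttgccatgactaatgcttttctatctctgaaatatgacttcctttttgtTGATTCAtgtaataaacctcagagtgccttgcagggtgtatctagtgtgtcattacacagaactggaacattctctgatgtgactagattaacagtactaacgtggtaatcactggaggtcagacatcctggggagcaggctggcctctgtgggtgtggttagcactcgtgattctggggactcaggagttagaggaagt
The match, TGATTCA, stands 200 bases before the RefSeq start, and 6.75% of all windows hold a match to the loose form. None of the other 6 receptors with a promoter in the table had such a match there.

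Tigit and Cd96 encode receptors that compete with the activating receptor CD226 for nectin-type ligands such as CD155. Tigit, on the minus strand of chromosome 16 from 43648861 to 43664184, was the only receptor above isotype in all 3 tables, and in none did it pass the test. The anti-CTLA-4 libraries held 202, 234 and 9 reads, or 14.2, 12.7 and 0.316 RPKM. The anti-PD-1 DANA libraries held 6, 664 and 628 reads, or 0.257, 25.8 and 20.4 RPKM, and the Combo libraries held 1072, 6 and 5 reads, or 45.3, 0.195 and 0.122 RPKM. Each arm thus mixed libraries that were high with libraries near 0, and the arms overlap throughout. The means were 9.09 ± 7.64, 15.5 ± 13.4 and 15.2 ± 26.0 RPKM in that order (SD, n = 3 each), and the isotype mean was below 9.09 RPKM. Library a gave 99.3% of the Combo mean, which without it would be 0.158 RPKM. The log2 fold changes in the authors' deposited tables were 0.44 ± 1.86, 1.39 ± 1.86 and 2.02 ± 1.86, with the smallest unadjusted p at 0.278.

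Cd96 lies on the minus strand of chromosome 16 from 46035657 to 46120251 and was the most evenly read receptor of the isotype arm. Its mean was 60.9 RPKM with anti-CTLA-4 and 47.7 RPKM with anti-PD-1 DANA, where reads per library were not recovered. With isotype the libraries held 1840, 204 and 1974 reads, or 35.1, 3.81 and 27.5 RPKM, with a mean of 22.2 ± 16.3 RPKM (SD, n = 3). Its standard error of 0.94 was the smallest of the 9 receptors in each table. The authors' deposited tables give 0.49 ± 0.94 after anti-CTLA-4, 0.24 ± 0.94 after anti-PD-1 DANA and -0.83 ± 0.94 after Combo, none past the test. The 95% intervals ran from -1.35 to 2.33, from -1.60 to 2.08 and from -2.67 to 1.01. The log2 ratio of RPKM means was larger, at 1.46 with anti-CTLA-4 and 1.11 with anti-PD-1 DANA. Over genes with both means known, RPKM ratios exceeded the authors' log2 fold changes by a median of 0.94 in the anti-CTLA-4 table, 0.82 in the anti-PD-1 DANA table and 0.11 in the Combo table.

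Btla and Cd160 encode receptors for HVEM, the product of Tnfrsf14. Btla lies on the plus strand of chromosome 16 from 45224315 to 45252895. The isotype libraries held 6, 1915 and 1189 Btla reads, or 0.0768, 24.0 and 11.1 RPKM, with a mean of 11.7 ± 12.0 RPKM (SD, n = 3). Library a was low and libraries b and c were high, and without library b the mean would be 5.59 RPKM. In the authors' deposited tables Btla was at -1.0 ± 1.50 after anti-CTLA-4, -0.92 ± 1.50 after anti-PD-1 DANA and -1.06 ± 1.50 after Combo, and no value passed the test. Scaled by library size the values were -0.06, -0.10 and -0.95 in the same order, close to 0 with either single antibody.

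Cd160, on the minus strand of chromosome 3 from 96798763 to 96829351, was read in every anti-PD-1 DANA library but mainly in 1 library of Combo and 1 of isotype. The anti-PD-1 DANA libraries held 486, 1058 and 447 reads, or 7.59, 15.0 and 5.30 RPKM. The Combo libraries held 33, 12 and 3837 reads, or 0.508, 0.142 and 34.1 RPKM, and the isotype libraries held 5, 1615 and 8 reads, or 0.0789, 24.9 and 0.0921 RPKM. The arms overlap, and their means were 9.28 ± 5.05, 11.6 ± 19.5 and 8.37 ± 14.3 RPKM in that order (SD, n = 3 each). Without library c the Combo mean would be 0.325 RPKM, and without library b the isotype mean would be 0.0855 RPKM. The authors' deposited tables give -1.12 ± 1.61 after anti-CTLA-4, -0.51 ± 1.61 after anti-PD-1 DANA and 0.53 ± 1.61 after Combo, none past the test. The ratio of RPKM means with anti-PD-1 DANA was above 1 (log2 of 0.15), opposite in sign to the authors' fold change. The HVEM gene itself, Tnfrsf14, was at -1.28 ± 1.81, -3.33 ± 1.82 and 0.67 ± 1.81 in the same order in the authors' deposited tables and was not called. Tnfsf14, which encodes LIGHT, an activating partner of HVEM, rose with anti-CTLA-4 (6.39 ± 1.83, false discovery rate 0.0378) in the authors' deposited table. It also rose with anti-PD-1 DANA (6.61 ± 1.83, false discovery rate 0.0302) in the authors' deposited table. With Combo it was at 1.74 ± 1.85, not called. The anti-CTLA-4 libraries held 69, 156 and 1008 Tnfsf14 reads, and the anti-PD-1 DANA libraries held 1, 990 and 475.

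Cd200r1 encodes the receptor for CD200 and is found on myeloid cells and on subsets of T cells. It lies on the plus strand of chromosome 16 from 44765736 to 44794978. The isotype libraries held 2, 2 and 2637 reads, or 0.0410, 0.0401 and 39.4 RPKM, with a mean of 13.2 ± 22.8 RPKM (SD, n = 3). Library c alone was high and gave 99.8% of the mean, which without it would be 0.0406 RPKM. With anti-CTLA-4, Cd200r1 fell by 9.02 ± 1.99 on the log2 scale (false discovery rate 0.00375), and with Combo it fell by 8.77 ± 1.98 (false discovery rate 0.00224), in the authors' deposited tables. Neither passed Bonferroni adjustment, at p values of 0.281 and 0.479 in the authors' deposited tables. With anti-PD-1 DANA the authors' deposited table gives -2.77 ± 1.91 (p = 0.146), not called. The treated levels were not given directly. With library size scaling the log2 differences were -8.08 with anti-CTLA-4 and -8.67 with Combo. Set against the isotype mean of 13.2 RPKM, these 2 values approximate treated levels near those of isotype libraries a and b. The reads of the treated libraries themselves were not recovered. Markers of myeloid cells in the isotype arm were also read from single libraries, Mpeg1 with 4, 1 and 1054 reads, C1qa with 1, 867 and 1, Timd4 with 1, 1215 and 0, and Fcgr3 with 467, 3 and 0. Of these, Mpeg1 was highest in the library in which Cd200r1 was high, and the other 3 were not; their part in the result was not tested. The neighbouring genes of the CD200R family gave no call: Cd200r4 was at 1.99 ± 2.30 after anti-CTLA-4, 3.58 ± 2.29 after anti-PD-1 DANA and -1.96 ± 2.34 after Combo in the authors' deposited tables. Cd200r2 reached at most 0.0058 RPKM and Cd200r3 was listed at 0. The ligand gene Cd200 was at 5.85 ± 2.51, 6.76 ± 2.50 and 0.89 ± 2.63 in the same order in the authors' deposited tables, not called, with 86, 0 and 0 reads in the anti-CTLA-4 libraries and 67, 185 and 0 in the anti-PD-1 DANA libraries.

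**Figure D3:**
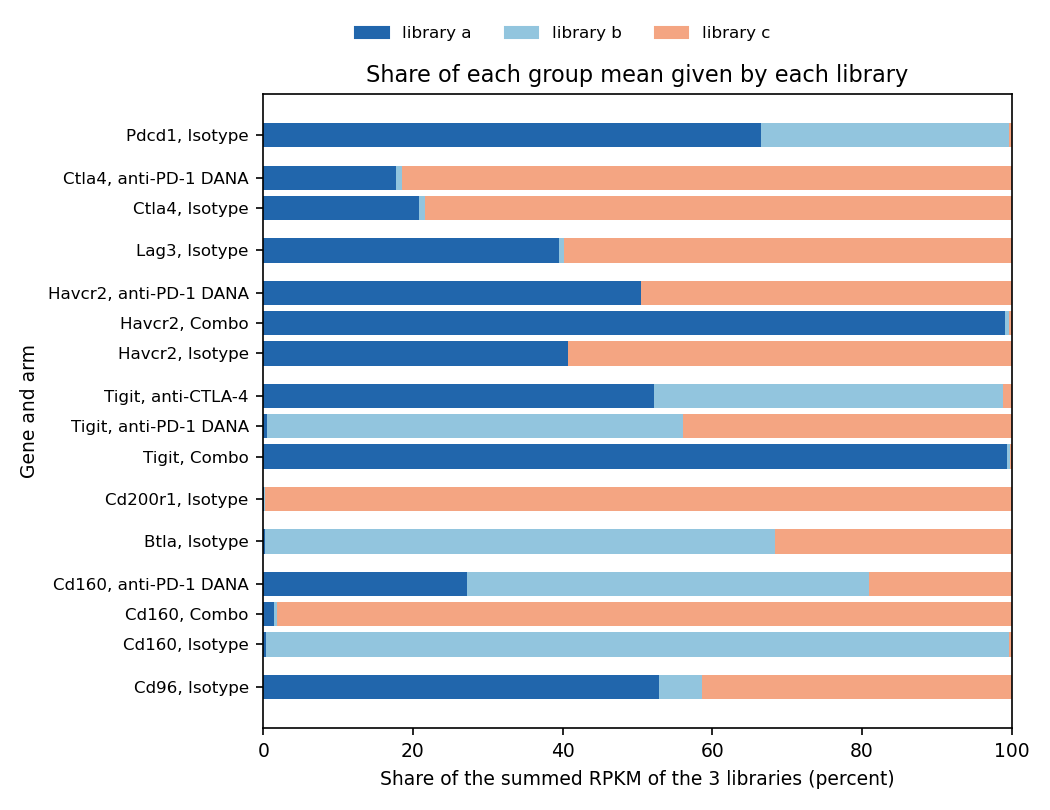
Share of each recovered group mean given by each of the 3 libraries of the arm (x axis, percent of the summed RPKM; rows, gene and arm). In 6 of the 16 rows 1 library gave 80% or more, among them Cd200r1 and Cd160 in isotype and Havcr2, Tigit and Cd160 in Combo.

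In the isotype arm the receptors ranked, from the highest mean, Lag3 (24.9 RPKM), Cd96 (22.2 RPKM), Pdcd1 (18.4 RPKM), Cd200r1 (13.2 RPKM), Btla (11.7 RPKM), Cd160 (8.37 RPKM), Ctla4 (1.46 RPKM) and Havcr2 (0.0126 RPKM), all per length of exon. The isotype mean of Tigit was not given and had an upper limit of 9.09 RPKM, so its place could only be approximated. Scaled by library size, its log2 fold changes were 2.12 for Combo, 2.21 for anti-PD-1 DANA and 1.39 for anti-CTLA-4. Taken from the treated means, each approximates an isotype level between those of Cd160 and Ctla4. Among the receptors with a given isotype mean, no neighbours differed by more than the SD of the higher one. The libraries of the isotype arm differed in which receptors they held. Library a was nearly without Cd200r1, Btla and Cd160, library b nearly without Ctla4, Lag3 and Cd200r1, and library c nearly without Pdcd1 and Cd160. Other genes of similar level were uneven too. Of means between 5 and 30 RPKM with recovered reads, 1 library gave 80% or more for 10.2% of 1161 with anti-CTLA-4, 8.77% of 867 with anti-PD-1 DANA, 47.0% of 500 with Combo and 66.3% of 816 with isotype. Among all genes called lower than isotype whose reads were recovered, 88.4% of 147 with anti-CTLA-4 and 80.1% of 291 with Combo rested on 1 isotype library in the same way. Cd200r1, whose reads were recovered only with 1 annotated transcript left out, is not counted in these shares. It rested on 1 isotype library as well, and Lag3 did not.

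The antibody arms were set against each other through their fold changes against the shared isotype libraries, with a two-sided normal test on the authors' fold changes and implied standard errors. Lag3 was higher with Combo than with anti-CTLA-4 alone, by 7.24 ± 1.44 on the log2 scale (95% interval 4.40 to 10.1, p adjusted over all listed genes 0.000955), the difference between its -0.96 with Combo and -8.20 with anti-CTLA-4. It was the 1 of 9 receptors called in this contrast, where 0.903% of all tested genes were called. Its call was lost when an upper bound of the error was used for every gene. Cd200r1 was at 0.25 ± 1.99 in the same contrast, with an interval of -3.65 to 4.14. Combo against anti-PD-1 DANA gave 0 of 9 calls, where 0.449% of all tested genes were called. From the authors' fold changes, its lowest unadjusted p among receptors was that of Cd200r1, at -6.00 ± 1.95 (p = 0.00203, adjusted p 0.256), and Lag3 was at 1.13 ± 1.43, with an interval of -1.67 to 3.93. Anti-CTLA-4 against anti-PD-1 DANA gave 0 of 9 calls and 0% of all tested genes. There, again from the authors' fold changes, Lag3 was at -6.10 ± 1.44 (p = 2.4e-05, adjusted p 0.207) and Cd200r1 at -6.25 ± 1.95 (p = 0.00134, adjusted p 0.867). Pdcd1, Ctla4, Tigit, Btla, Cd160 and Cd96 had intervals that hold 0 in all 3 contrasts. For Havcr2 the interval ran from 1.31 to 17.3 in Combo minus anti-CTLA-4. In anti-CTLA-4 minus anti-PD-1 DANA it ran from -18.6 to -2.52. Neither was called, and the anti-CTLA-4 fold change of Havcr2 rests on 3 isotype reads. For Pdcd1 the interval of Combo minus anti-PD-1 DANA ran from -2.20 to 3.56, and for Ctla4 that of Combo minus anti-CTLA-4 from -2.28 to 5.94, so these receptors are not shown to be alike between arms.

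**Figure D4:**
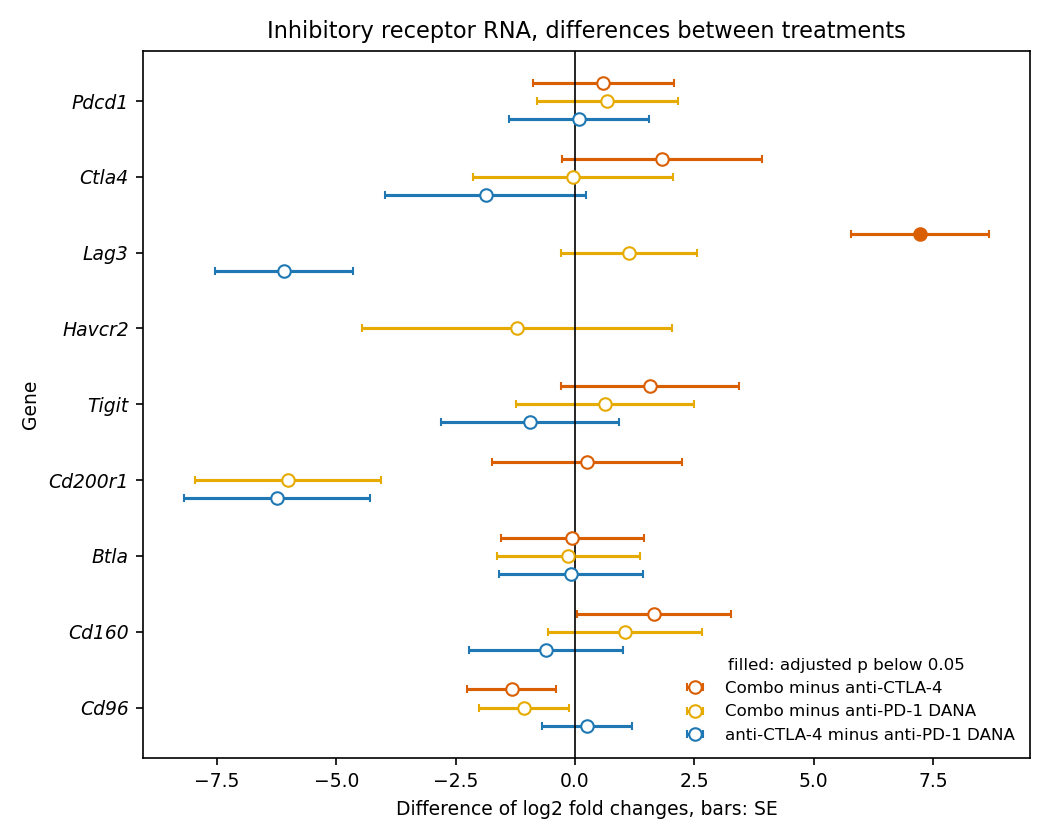
Difference between 2 treatments in the log2 fold change of each receptor (x axis), with its standard error as bars; colours give the contrast and filled points have an adjusted p under 0.05. Lag3 in Combo minus anti-CTLA-4, at 7.24, is the only filled point. Contrasts of Havcr2 with anti-CTLA-4 are not drawn because its fold change there rests on 3 isotype reads in all.

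Genes that work with these receptors were counted by list, beside the 4.23% of all tested genes called after anti-CTLA-4, 3.75% after anti-PD-1 DANA and 7.53% after Combo. Of 5 genes of activating molecules that share binding partners with the 9, 2 were higher with anti-CTLA-4 (Tnfsf14 and Cd4). With anti-PD-1 DANA 1 was higher (Tnfsf14), and none was called with Combo. Tnfsf14 encodes LIGHT, a ligand of HVEM, and the others encode receptors. Of 13 tested ligand genes none was called with anti-CTLA-4, 2 were higher with anti-PD-1 DANA and 1 was higher with Combo. Their median log2 fold changes were 0.30, 0.45 and 0.89 in that order, beside -0.62, -0.45 and -0.42 over all tested genes. Cd86, which encodes a ligand shared by CTLA-4 and CD28 and made by antigen-presenting cells, rose with anti-PD-1 DANA at 7.07 ± 1.91 (false discovery rate 0.0248) in the authors' deposited table, with 655, 251 and 655 reads in those libraries. With anti-CTLA-4 Cd86 was at 5.80 ± 1.91 (false discovery rate 0.0945) and with Combo at 4.26 ± 1.91 (false discovery rate 0.369) in the authors' deposited tables. Cd80 was listed at 0 in all 3 tables. Cd274, the PD-L1 gene, was at -0.28 ± 1.53 after anti-CTLA-4, -0.86 ± 1.53 after anti-PD-1 DANA and -0.16 ± 1.53 after Combo in the authors' deposited tables, none called. Of 15 tested signalling partners 1 was called, Ptpn6, which encodes the phosphatase SHP-1 and with Combo fell by 1.65 ± 0.46 on the log2 scale (false discovery rate 0.0211) in the authors' deposited table, where isotype averaged 108.5 RPKM. It was at -1.15 ± 0.46 with anti-CTLA-4 and -1.0 ± 0.46 with anti-PD-1 DANA in the authors' deposited tables, not called.

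Of 20 tested inhibitory receptors outside the 9, none was called with anti-CTLA-4, 1 was lower with anti-PD-1 DANA and 1 was lower with Combo. Beside this list and the transcription factors that follow, 4.23%, 3.75% and 7.53% of all tested genes were called in that order. Lair1, which encodes a collagen receptor, fell by 7.59 ± 1.74 with anti-PD-1 DANA (false discovery rate 0.00556), and Cd22, a B cell receptor for sialic acid, fell by 6.38 ± 1.69 with Combo (false discovery rate 0.0123), in the authors' deposited tables. Of 19 transcription factors tied to exhaustion or effector fate 1 was called in each comparison, and in each it was Tbx21, the gene of T-bet. Tbx21 rose with anti-CTLA-4 at 7.27 ± 1.52, with anti-PD-1 DANA at 6.65 ± 1.52 and with Combo at 6.97 ± 1.52 in the authors' deposited tables. Tox, which encodes a factor needed for exhaustion, was at -1.07 ± 1.07, -0.33 ± 1.07 and -0.47 ± 1.07 in the same order in the authors' deposited tables. Nr4a1, induced by antigen receptor signalling, was at -1.64 ± 1.64, -1.33 ± 1.64 and -1.14 ± 1.64 there, and neither gene was called.

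Markers of other cell types were counted in the same comparisons, again beside 4.23% of all tested genes called after anti-CTLA-4, 3.75% after anti-PD-1 DANA and 7.53% after Combo. Of 18 B cell markers 4 were higher with anti-CTLA-4 (Ms4a1, Fcer2a, Spib and Pou2af1). Blnk was lower with anti-PD-1 DANA, and with Combo Fcer2a was higher and Blnk lower. The isotype libraries held 1608, 5 and 2 Blnk reads, so both Blnk calls rest on 1 isotype library. Of 9 tested myeloid markers 4 were lower with anti-CTLA-4 (C1qa, Mpeg1, Fcgr3 and Timd4), Csf1r was higher and Fcgr3 lower with anti-PD-1 DANA, and Lyz2, Fcgr3 and Timd4 were lower with Combo. Adgre1, Cd14 and Fcgr1 were listed at 0 in all tables. The 7 myeloid markers with a known isotype mean, those at 0 included, summed to 25.2 RPKM in the isotype arm. Lyz2 is not in that sum. Its larger mean in the authors' deposited table of Combo was 49.1 RPKM at a log2 fold change of -4.26, so that mean was the isotype one. Sums for the treated arms cannot be had from tables of the larger mean. Of 6 markers of CD4 and regulatory T cells 1 was called, Cd4, which was higher with anti-CTLA-4 (8.23 ± 2.36, false discovery rate 0.039, in the authors' deposited table), with 132, 401 and 0 reads in those libraries. In the same deposited table of the authors, Cd40lg was at 7.82, Il2ra at 7.24, Ikzf2 at -0.11, Foxp3 at -0.11 and Zbtb7b at -1.35, none of them called. Of 10 markers listed for CD8 T cells Ptprc alone was called, with anti-CTLA-4. It was at -1.33 ± 0.36 in the authors' deposited table, where the median of all tested genes was -0.62. Library size scaling raises each log2 fold change of that table by 0.94, so the size of the Ptprc fall depends on the scaling. Ptprc encodes CD45, which other leukocytes carry too, and none of the CD3, CD8 or antigen receptor genes of the list was called. No marker of dendritic cells, NK cells or stroma was called among 5, 4 and 3 tested. The part of these cells in the calls of Lag3 and Cd200r1 was not tested.

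The genes of 4 receptors, Tigit, Cd200r1, Btla and Cd96, lie within 2.47 Mb of chromosome 16. Of the 27 tested genes in that span, 3 were called with anti-CTLA-4 (Atg3, Cd200r1 and Gtpbp8), 1 with anti-PD-1 DANA (Atg3) and 4 with Combo (Abhd10, Atg3, Cd200r1 and Gtpbp8), beside 4.23%, 3.75% and 7.53% of all tested genes in the same order. Cd200r1 was the only receptor among them.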

How the data were processed

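RNA was measured in 12 libraries of 4 arms. Per the labels' protocols, the authors aligned and counted reads in CLC Genomics Workbench. The submitters' processing notes name GRCm38.p5 as the build. The program's version, its annotation and its test were not given in the sources used here. Each table deposited by the authors sets a treatment against isotype and holds the larger group mean, which its values show to be RPKM. The authors also deposited a log2 fold change and a signed fold change score, both positive where the treated arm is higher. The p-values deposited by the authors were adjusted over all 48709 listed genes. A gene was called at a deposited false discovery rate under 0.05.

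Standard errors were implied from each log2 fold change and its p-value on the assumption of a Wald test. Contrasts between treatments used differences of fold changes. Their error took equal variances where the 3 standard errors agreed within 5% (57.4% of tested genes), and an upper bound elsewhere. Library sizes were recovered from the single-read steps of low RPKM means, and whole reads per library were then solved with exon lengths from GENCODE M21, accepting unique solutions where chance allowed at most 0.2. Of means with an expected chance of at most 0.05, 85.4 to 88.2% were solved, against 0.39 to 0.437% with lengths off by 1 base. Of those from 0.05 to 0.2, which include Pdcd1, Lag3, Btla and Cd96 in isotype and Cd160 in Combo, 54.3 to 74.6% were solved, against 7.52 to 10.1%. For Cd200r1, 1 annotated transcript had to be left out, a choice made after the values were seen. Scripts were tested on simulated data. Python 3.11.15, numpy 2.4.6, pandas 2.3.3 and scipy 1.17.1 were used.

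The receptors, related lists and markers were chosen with earlier results of these data known. All 9 receptors are named. Related genes are named where called in at least 1 table, with Cd274, Cd80, Cd86, Cd200, Tnfrsf14, Tox, Nr4a1 and the CD200R family named whatever their values. Promoters are from RefSeq (GRCm38.p6), and motifs were searched on both strands.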

Additional observations from a re-analysis of the deposited data

Results flagged for a closer look

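Lag3 was singled out because its response differed between treatments by a test of the difference itself. The log2 fold change against isotype was -0.96 with Combo and -8.20 with anti-CTLA-4, a difference of 7.24 ± 1.44 (adjusted p 0.000955). With the upper bound of the error no receptor was called in this contrast. The isotype libraries that both treatments were set against held 1491, 26 and 3092 Lag3 reads.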

How the results depend on the processing

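Of 121 values of single receptors under other settings, 115 kept their direction and their side of the threshold. Only library size scaling alters a fold change, so no direction could turn under the other settings. Values of receptors that a setting removed are not among the 121. The Cd200r1 calls lost without genes resting on 1 library are thus not counted there. The log2 fold changes that turned were those of Ctla4 (0.50) and Cd160 (0.30) with anti-PD-1 DANA under library size scaling, which adds the median difference between RPKM ratios and the authors' fold changes. With Bonferroni adjustment 1 receptor was called with anti-CTLA-4 (Lag3) and 0 with Combo, and likewise 1 and 0 without genes resting on 1 library. Taking reads only at an expected chance of at most 0.05, an alternative added after the data had been seen, also gave 1 and 0, but it could not have removed Lag3, whose isotype reads were recovered at 0.167. With anti-PD-1 DANA 1 receptor (Havcr2) was called when p was adjusted over tested genes alone or with library size scaling. In Combo against anti-CTLA-4, 0 receptors were called with the upper bound of the error. The number of all genes called with anti-CTLA-4 was 754, and 1616 when adjusted over tested genes, 27 with Bonferroni adjustment and 1367 with library size scaling. With anti-PD-1 DANA it was 669, and 1596, 34 and 1217 under the same settings. With Combo it was 1343, and 2238 when adjusted over tested genes and 74 with Bonferroni adjustment. Of the genes called with library size scaling 1188 were higher with anti-CTLA-4 and 1051 with anti-PD-1 DANA, against 488 and 434 as deposited.

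No paired analysis was possible because the tables hold no column per library. For the same reason the fits with a replicate block and without each library in turn were not run. Libraries are splits of 1 pool per arm, the treated level of a receptor lower than isotype is not given directly, and a fold change for a receptor read from 1 library rests on that library.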
